A study of Mus musculus with 13 samples.

Results

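10 genes of mitogen signalling were followed through every library of the series: the fibroblast growth factor (FGF) receptors Fgfr1, Fgfr2, Fgfr3, Fgfr4 and Fgfrl1, the ligands Fgf2, Fgf7 and Fgf21, and the pair of hepatocyte growth factor Hgf and its receptor Met. They were chosen by symbol, as 10 of the 23366 genes in the count table. No cutoff on a measured value was applied, but earlier results of these data were known. All 10 also passed the filter on low counts, which left 16537 genes for testing.

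The 13 RNA-seq libraries came from mice of mixed strain and comprised myotubes of 2 dICR/dICR and 5 wild-type samples and myoblasts of 2 dICR/dICR and 4 wild-type samples. The dICR/dICR allele removes, on both chromosomes, the imprinting control region between Igf2 and H19. Primary myoblasts were prepared from the hind limb muscle of 2- to 3-day-old pups and grown in F10 with 10% calf serum and an FGF, whose type is not named, at 2.5 µg/ml. Myotubes were such cells after 24 hours in DMEM with 1% horse serum, so the protocol removes the added FGF at the same step that starts differentiation. The labels do not say whether libraries of a group came from separate cultures or animals, so p-values measure only the spread between these libraries.

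FGFs bind receptor tyrosine kinases together with heparan sulfate, and the activated receptor signals through adaptor proteins to the ERK kinases. In cultured myoblasts this signal sustains division and holds back differentiation. HGF is made as an inactive precursor and, once cut, activates Met, a tyrosine kinase receptor known for waking satellite cells and for the migration of muscle precursors in the embryo. Fgfrl1 differs from the other 4 receptors in having no kinase domain, and Fgf21 differs from most FGFs in acting as a circulating hormone.

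Total counts fell in a deep set of 7 libraries (35.56 to 56.44 M, M being 1e6 counts) and a shallow set of 6 (5.31 to 10.91 M). Both dICR/dICR myoblasts are shallow and both dICR/dICR myotubes deep, while wild-type myotubes 1 to 3 and myoblasts 1 and 2 are deep and the other wild-type libraries shallow. The sets differed in more than depth: snoRNA genes took 0.012 to 0.133% of counts in deep libraries and 2.8 to 7.134% in shallow ones, and the Y-linked gene Ddx3y stood at 0.153 to 0.462 CPM (counts per 1e6 counts) in the 4 shallow wild-type libraries and at 14.5 to 176 CPM in the other 9. H19 checked the genotype labels, at 52.4 to 71.5 CPM in dICR/dICR libraries and 2340 to 40500 CPM in wild-type ones. Myoblast markers (Myod1, Myf5, Pax7, Cdh15, Des and Chodl) summed to 2570 and 3560 CPM in dICR/dICR myotubes and 3320 to 4860 CPM in wild-type myotubes. They summed to 1260 and 1350 CPM in dICR/dICR myoblasts and 1260 to 2650 CPM in wild-type myoblasts. The sums were thus larger in myotubes than in myoblasts of the same genotype, and Chodl stayed below 1 CPM outside wild-type myotubes. Not every marker on the list followed its sum. Myf5 averaged 26.2 CPM in wild-type myotubes, against 114 CPM in wild-type myoblasts, and Pax7 was also lower in wild-type myotubes. Markers of endothelium, leukocytes, adipocytes, Schwann cells and erythroid cells summed to at most 11.9 CPM for any list in any library, and the 10 fibroblast markers summed to 106 to 925 CPM, with Lum, Dpt, Tcf21 and Thy1 below 1 CPM in every library. The 5 smooth muscle and pericyte markers, which include Acta2 and Cnn1, summed to 1030 and 2280 CPM in dICR/dICR myotubes, 2150 to 4410 CPM in wild-type myotubes, 115 and 284 CPM in dICR/dICR myoblasts and 82.7 to 395 CPM in wild-type myoblasts, and their part in the stage differences was not tested. Summed markers of differentiating muscle were 18100 and 40900 CPM in dICR/dICR myotubes and 47900 to 108000 CPM in wild-type myotubes. They were 3640 and 9520 CPM in dICR/dICR myoblasts, and in wild-type myoblasts 4010 and 5020 CPM in the deep pair and 18800 and 22500 CPM in the shallow pair.

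The 250 bases before an annotated start of 4 of the genes are shown first, because many results below concern them. Met and Fgfr3 were the members called in wild-type differentiation. Fgf21 and Fgfr4 differed between the depth sets in that comparison, as did Fgf7 and Fgfrl1, which are not shown. Sequences are from RefSeq on GRCm38.p6, a later build than the mm9 assembly the reads were aligned to, and run 5′ to 3′ on the gene's strand; 9 of the 10 genes matched an entry, all but Fgfr1. Capitals mark the E-box CANNTG, the general binding letters of MyoD and other basic helix-loop-helix factors, and in Fgf21 also the core TGATGNAA of the C/EBP-ATF response element, each searched on both strands.
Met, chr6:17463707-17463956 (plus strand): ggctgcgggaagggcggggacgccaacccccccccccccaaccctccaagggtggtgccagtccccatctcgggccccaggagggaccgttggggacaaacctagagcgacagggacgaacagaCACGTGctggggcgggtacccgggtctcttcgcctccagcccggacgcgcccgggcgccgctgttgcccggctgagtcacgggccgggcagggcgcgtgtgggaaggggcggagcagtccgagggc
Fgfr3, chr5:33721474-33721723 (plus strand): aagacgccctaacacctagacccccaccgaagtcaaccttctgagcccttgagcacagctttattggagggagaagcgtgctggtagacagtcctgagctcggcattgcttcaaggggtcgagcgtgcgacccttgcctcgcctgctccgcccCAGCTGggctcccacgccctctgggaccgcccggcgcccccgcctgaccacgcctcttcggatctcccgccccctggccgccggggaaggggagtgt
Fgf21, chr7:45615491-45615740 (minus strand): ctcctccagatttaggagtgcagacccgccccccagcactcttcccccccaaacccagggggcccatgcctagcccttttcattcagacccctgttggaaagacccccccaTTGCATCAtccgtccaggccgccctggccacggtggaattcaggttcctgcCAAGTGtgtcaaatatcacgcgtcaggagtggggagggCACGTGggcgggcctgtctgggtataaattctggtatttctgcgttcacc
Fgfr4, chr13:55152568-55152817 (plus strand): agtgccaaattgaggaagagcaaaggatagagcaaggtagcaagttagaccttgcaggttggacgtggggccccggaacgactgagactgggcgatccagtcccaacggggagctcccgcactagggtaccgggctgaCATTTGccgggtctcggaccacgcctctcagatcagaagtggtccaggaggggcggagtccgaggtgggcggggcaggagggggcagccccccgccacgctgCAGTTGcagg
An E-box occurred in 66.0% of the 27025 promoters of the same length, so its presence in each of the 4 sets none of them apart. The GC-core form CAGCTG, a subset of the E-box, occurred in 12.8% of promoters and among these genes only in Fgfr3, at 97 bases before the start. The response element core, present in 3.53% of promoters, lay in Fgf21 on the reverse strand at 139 bases before the start, and is an element of genes induced through Atf4. The Sp1 box GGGCGG, found in 32.9% of promoters, occurred 3 times each in Met, Fgfr3 and Fgf21 and 2 times in Fgfr4. A further annotated start of Fgfr3, downstream of the one shown, had no E-box in its window. The Met window lies inside the annotated gene, which begins at position 17463349, so its matches are not upstream of the whole gene. These matches describe letters and not occupied sites.

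Levels can be compared between genes only per length, here as CPM per kb of exon. Averaged over the 13 libraries the order was Fgf21 (58.3 ± 67.3 CPM per kb, SD), Met (35.9 ± 18.5), Fgfrl1 (20.2 ± 10.6), Fgfr1 (12.3 ± 4.25) and Fgfr4 (8.39 ± 6.92). The other 5 genes lay far lower. Fgfr3 averaged 1.15 ± 0.982 CPM per kb, Fgf7 0.636 ± 0.826, Fgfr2 0.398 ± 0.239, Hgf 0.168 ± 0.124 and Fgf2 0.0388 ± 0.071. Neighbouring means in this order differed by less than the larger SD of the pair, except between Fgfr4 and Fgfr3 and between Hgf and Fgf2, where the gap exceeded it. Fgfr1 was the steadiest member, with a 2.95-fold span between its lowest and highest library, and Fgf7 spanned 41.1-fold. Met was the most abundant of the receptor genes in dICR/dICR myotubes, dICR/dICR myoblasts and wild-type myoblasts. In wild-type myotubes Fgfrl1 averaged 21.1 ± 17.5 and Met 17.0 ± 5.95 CPM per kb, an order that rests on wild-type myotube 5, since without it, a setting chosen after seeing the data, Fgfrl1 averaged 13.4 ± 3.73 and Met 18.2 ± 6.13 CPM per kb (SD, n = 4).

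**Figure D1:**
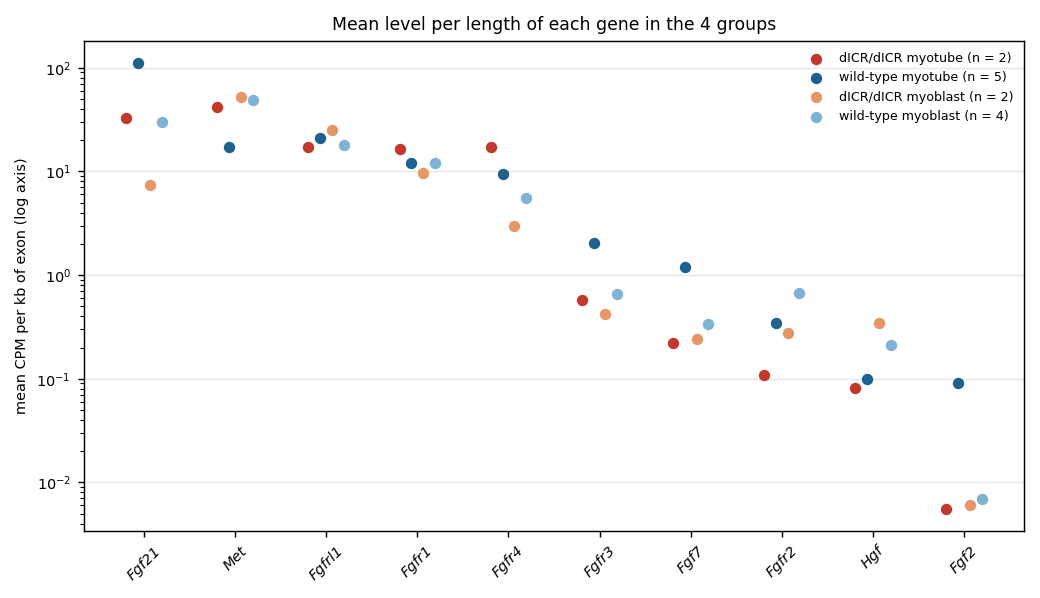
Mean level of each gene in CPM per kb of exon (log axis) in dICR/dICR myotubes, wild-type myotubes, dICR/dICR myoblasts and wild-type myoblasts, genes ordered by their mean over 13 libraries. Fgf21, Met, Fgfrl1, Fgfr1 and Fgfr4 form the upper part, and Fgf2 averaged 0.0907 CPM per kb in wild-type myotubes and 0.00557 to 0.00687 CPM per kb in the other groups.

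The main change of wild-type differentiation within the group was a fall of Met and a rise of Fgfr3. Met was at 161, 159, 87.6, 88.0 and 82.9 CPM in wild-type myotubes 1 to 5, against 441, 385, 254 and 243 CPM in wild-type myoblasts 1 to 4. The groups did not overlap, and the shallow myoblasts 3 and 4 lay below the deep ones. The log2 fold change was -1.51 ± 0.30 (SE), a level 2.85-fold lower in myotubes (adjusted p = 0.00617, edgeR quasi-likelihood). The fall had nearly the same size within the deep set (-1.57 ± 0.36, edgeR adjusted p = 0.021) and within the shallow set (-1.52 ± 0.16, edgeR adjusted p = 0.000901). In bulk RNA fewer cells of a type and less RNA per cell cannot be told apart.

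Fgfr3, a receptor known mainly from cartilage and bone growth, stood at 4.27, 4.97, 7.81, 14.3 and 13.8 CPM in wild-type myotubes and at 2.93, 2.78, 2.59 and 3.37 CPM in wild-type myoblasts. Every myotube library was above every myoblast library, and the shallow myotubes 4 and 5 were the highest. The rise was 1.62 ± 0.41 on the log2 scale, or 3.07-fold (adjusted p = 0.0178, edgeR quasi-likelihood). Within the shallow set it was 2.26 ± 0.34 (edgeR adjusted p = 0.00355), and within the deep set 1.03 ± 0.44, which did not pass (edgeR adjusted p = 0.125). Without wild-type myoblast 1 or 2 the call was also lost (edgeR adjusted p = 0.0515 and 0.0548) although the fold change stayed at 1.63 and 1.60.

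Met and Fgfr3 were 2 of the 10 members called, near the 19.1% of all genes called in this comparison (8.86% higher, 10.2% lower). At an unadjusted p under 0.05 there were 5 members, against 33.2% of all genes. Non-overlapping groups were seen in 3 members, Fgfr3 higher and Met and Fgfr2 lower, against 19.0% of all genes (9.07% higher, 9.91% lower). Within the deep set 2 of 9 members tested were called (Met and Fgf21), against 22.2% of all genes, and within the shallow set 3 of 8 (Met, Fgfr3 and Fgf7), against 22.6%. DESeq2 called 4 of 10 (Met, Fgfr3, Fgf21 and Fgf2), against 26.2% of all genes, and limma voom 3 of 10 (Met, Fgfr3 and Fgf21), against 24.0%. The median log2 fold change over the 10 members was 0.51, and 0.02 over all genes. Fgfr2, the receptor that in other tissues exists as an FGF7-binding splice form, had 0.648, 2.40, 1.47, 2.00 and 2.24 CPM in wild-type myotubes, against 2.70, 3.03, 3.45 and 4.59 CPM in wild-type myoblasts. The difference of -0.99 ± 0.41 on the log2 scale missed the threshold (edgeR adjusted p = 0.115), with values of -0.89 ± 0.57 in the deep and -0.90 ± 0.48 in the shallow set.

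Fgf21 gave the widest disagreement between the sets. Its level was 200, 37.7, 177, 93.7 and 20.6 CPM in wild-type myotubes 1 to 5, against 8.20 and 7.25 CPM in the deep wild-type myoblasts 1 and 2 and 46.9 and 52.7 CPM in the shallow myoblasts 3 and 4. All 3 deep myotubes exceeded both deep myoblasts, whereas the shallow myotubes lay on either side of the shallow myoblasts. Within the deep set Fgf21 rose by 4.19 ± 0.73 on the log2 scale, 18.2-fold (edgeR adjusted p = 0.00928). Within the shallow set the value was 0.23 ± 0.55 (edgeR adjusted p = 0.797), and over all libraries 1.89 ± 0.75 (edgeR adjusted p = 0.1). DESeq2 called the value over all libraries (1.88, adjusted p = 0.0315), as did limma voom (2.59, adjusted p = 0.025).

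Fgfr4, the receptor typical of muscle precursors and a target of Pax3, showed the same division by set. It had 19.0, 63.0, 29.7, 26.9 and 17.7 CPM in wild-type myotubes, against 8.62 and 8.53 CPM in deep and 26.4 and 29.9 CPM in shallow wild-type myoblasts. The deep myotubes were all above the deep myoblasts, by 2.15 ± 0.66 on the log2 scale, just short of the threshold (edgeR adjusted p = 0.0534). In the shallow set the value was -0.30 ± 0.41 (edgeR adjusted p = 0.628), and over all libraries 0.79 ± 0.55 (edgeR adjusted p = 0.348). Both genes thus stood higher in the shallow wild-type myoblasts, the libraries that also held the larger muscle marker sums given above and, for myogenin, 1180 and 1200 CPM of Myog against 146 and 142 CPM in the deep myoblasts. The part of these markers in the Fgf21 and Fgfr4 values was not tested.

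**Figure D2:**
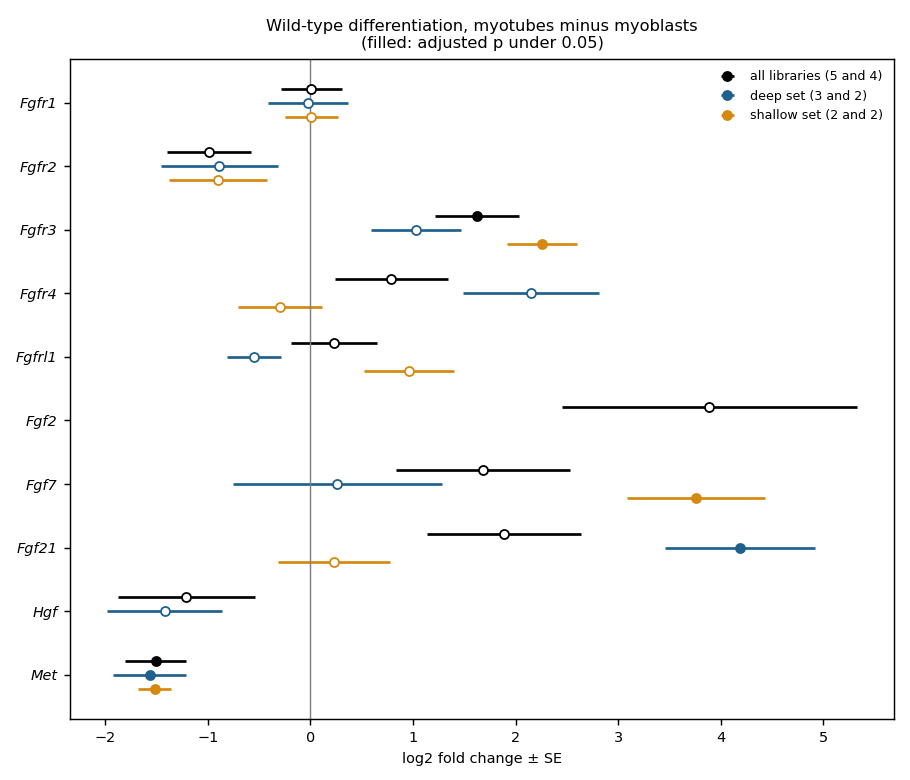
Log2 fold change with its SE for each gene in wild-type differentiation (myotubes minus myoblasts), over all libraries (5 and 4), within the deep set (3 and 2) and within the shallow set (2 and 2), with filled points for adjusted p under 0.05. Met lies between -1.57 and -1.51 in all 3 fits, while Fgf21 is at 4.19 in the deep and 0.23 in the shallow set. Fgf2 was too low for the fits within a set, and Hgf for that in the shallow set.

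The other receptors showed no call. Fgfr1, the main FGF receptor of cultured myoblasts, was at 45.5 to 111 CPM in wild-type myotubes (median 52.6) and 46.7 to 90.4 CPM in wild-type myoblasts (median 56.5), at 0.01 ± 0.30 on the log2 scale (edgeR adjusted p = 0.983). Its sign changed under library size alone (-0.24) and the SE leaves room for a change of either sign. Fgfrl1, which binds FGFs without signalling through a kinase, had 24.1, 38.1, 30.2, 46.3 and 134 CPM in wild-type myotubes and 42.3 to 49.9 CPM in wild-type myoblasts. Its value of 0.23 ± 0.42 (edgeR adjusted p = 0.763) rests on wild-type myotube 5, without which it was -0.41, and was -0.55 ± 0.26 in the deep and 0.96 ± 0.44 in the shallow set.

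Of the ligands, Fgf2, the classic myoblast mitogen, was close to undetected as RNA. Its counts were 0, 6, 67, 5 and 2 in wild-type myotubes 1 to 5 and 3, 0, 1 and 0 in wild-type myoblasts. They were 4 and 0 in dICR/dICR myotubes and 1 and 0 in dICR/dICR myoblasts. Wild-type myotube 3, a deep library, held 75.3% of all 89 Fgf2 counts, and 48.9% of the CPM summed over libraries. In CPM, myotubes 3, 4 and 5 (1.61, 0.769 and 0.407) were above every wild-type myoblast (at most 0.123), and myotube 1 was at 0. No fold change is drawn from so few counts. The differentiation test over all libraries missed the threshold (edgeR adjusted p = 0.0782), but it passed with the depth set as a term (edgeR adjusted p = 0.0432), without wild-type myotube 1 (edgeR adjusted p = 0.032) and by DESeq2 (adjusted p = 0.0405). Fgf2 overlaps Nudt6 on the other strand (1.17 to 4.69 CPM), and no source used here gives the strand setting of the counting, so even these counts are uncertain. Dpt, a fibroblast marker, was the gene most like Fgf2 across libraries (r = 0.943), although Dpt stayed below 1 CPM. The whole fibroblast marker list summed to 205, 925, 263, 344 and 347 CPM in wild-type myotubes 1 to 5. Fgf2 there was at 0, 0.173, 1.61, 0.769 and 0.407 CPM, and was not highest where the sum was largest. The part of fibroblast markers in the Fgf2 values was not tested.

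Fgf7, a ligand made by mesenchymal cells for epithelia, had 0.229, 0.752, 4.76, 9.39 and 3.67 CPM in wild-type myotubes, against 1.64, 1.67, 0.370 and 0.613 CPM in wild-type myoblasts. Its myotube values spread over more than the whole myoblast range. Myotubes minus myoblasts came to 1.68 ± 0.85 on the log2 scale with every library fitted (edgeR adjusted p = 0.192), 0.26 ± 1.02 in the deep set and 3.76 ± 0.67 in the shallow set, where it was called (edgeR adjusted p = 0.00728). The shallow call rests on 61 and 18 counts in wild-type myotubes 4 and 5, against 3 and 4 counts in myoblasts 3 and 4. The fibroblast markers summed to 344 and 347 CPM in those myotubes and 430 and 358 CPM in those myoblasts, and the 4 Schwann cell markers to 7.85 and 4.89 CPM in those myotubes and 2.71 and 3.22 CPM in those myoblasts. In the deep wild-type myotubes 1 to 3 the Schwann cell sums were 1.18, 1.71 and 8.41 CPM, highest in the library with the most Fgf7. The part of either marker list in the Fgf7 values was not tested. Fgf7 overlaps Fam227b, so an uncertainty of strand applies to its counts as well. Fam227b itself was low, with at most 9 counts in any library (0.216 CPM, in wild-type myotube 3).

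Hgf was near the detection floor, with 2, 7, 10, 7 and 1 counts in wild-type myotubes and 30, 22, 9 and 6 counts in wild-type myoblasts. Expressed as CPM, the myotubes spanned 0.0762 to 1.08 and the myoblasts 0.427 to 1.11. The difference of -1.21 ± 0.67 on the log2 scale missed the threshold (edgeR adjusted p = 0.23), and without wild-type myotube 4, the one high myotube library, it was -1.97 (edgeR adjusted p = 0.0284). Per length, Hgf RNA lay far below that of its receptor Met, at 0.168 against 35.9 CPM per kb over the 13 libraries.

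**Figure D3:**
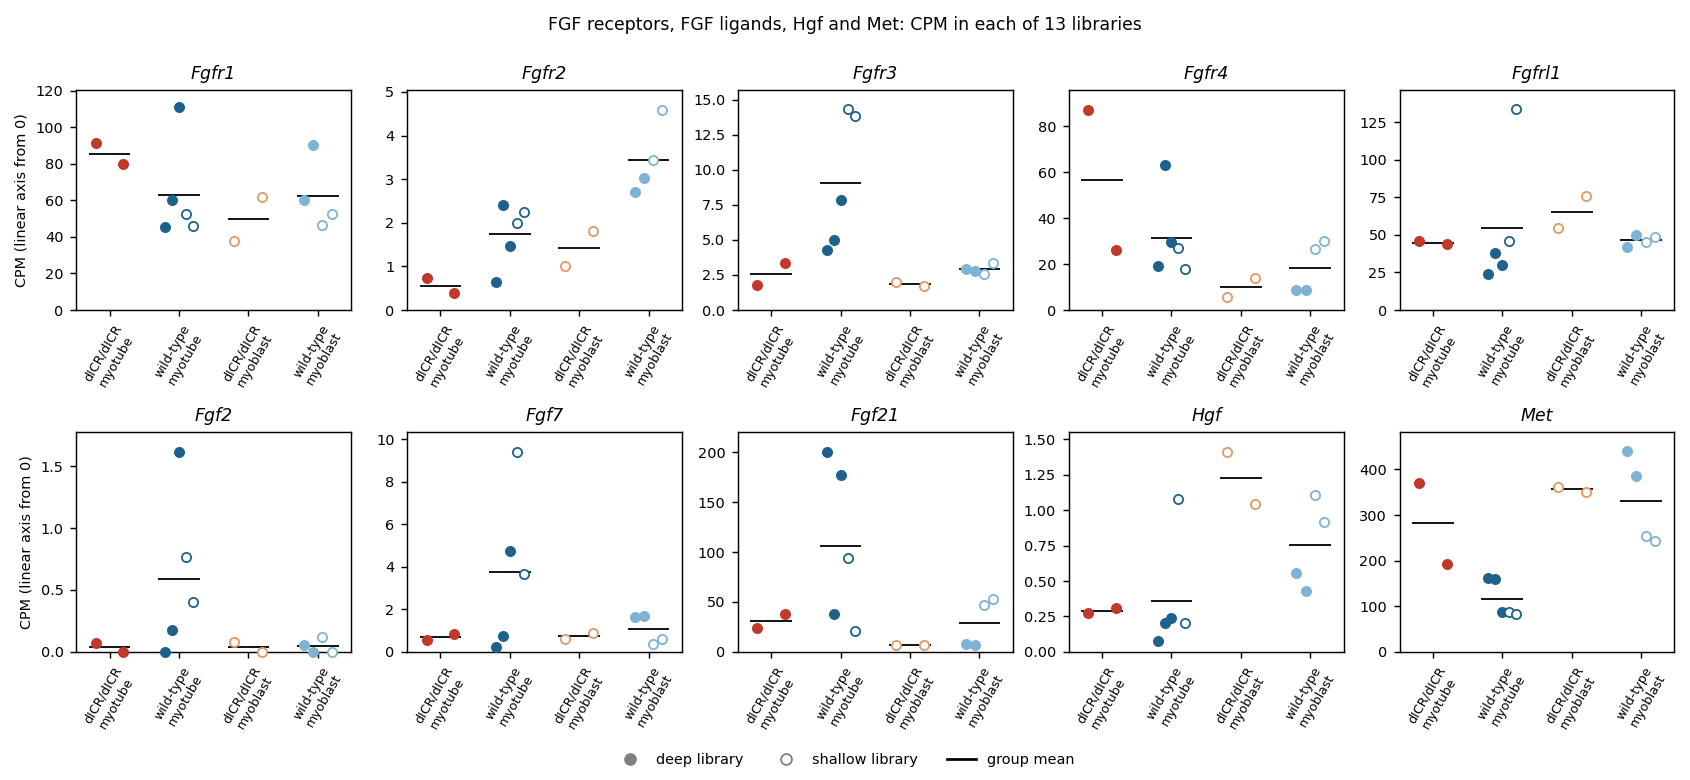
CPM of each of the 10 genes in every library (linear axis from 0), by group, with filled points for deep libraries, open points for shallow ones and bars for group means. Met in the 5 wild-type myotubes lies at 82.9 to 161 CPM, below all 8 other libraries. Fgfr3 in those 5 lies at 4.27 to 14.3 CPM, above all others.

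In dICR/dICR cells the same step gave no call among the 10 members. Of all genes 0.145% were called, 2 members had an unadjusted p under 0.05 (Fgfr4 and Hgf), against 19.2% of all genes, and DESeq2 and limma voom called 0 members as well, where they called 7.25% and 0.593% of all genes. Both groups are pairs and lie in different depth sets, so stage and set cannot be told apart here. Met was at 370 and 193 CPM in dICR/dICR myotubes, against 362 and 351 CPM in dICR/dICR myoblasts, with overlapping groups and a log2 fold change of -0.34 ± 0.45 (edgeR adjusted p = 0.703). With the depth set as a term it was -1.04 ± 0.39 (edgeR adjusted p = 0.122). That term is estimated from wild-type libraries alone, so the value assumes the same set difference in dICR/dICR cells. Fgfr4 was at 87.0 and 25.9 CPM in dICR/dICR myotubes and at 5.70 and 14.1 CPM in dICR/dICR myoblasts, a value of 2.52 ± 0.85 that did not pass (edgeR adjusted p = 0.176). Fgf21 was at 24.3 and 38.3 CPM in dICR/dICR myotubes, against 7.03 and 7.16 CPM in dICR/dICR myoblasts (2.14 ± 1.12, edgeR adjusted p = 0.31). In 6 of 10 members the groups did not overlap (3 higher, 3 lower), against 59.0% of all genes (30.0% higher, 29.0% lower).

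The difference between the differentiation changes of dICR/dICR and wild type was tested directly. No member passed by edgeR, by DESeq2 (0.435% of all genes called) or by limma voom (0.0%), and by edgeR none had an unadjusted p under 0.05, against 9.94% of all genes at that level and 0.0% called. Both changes share no library, but the depth sets are spread unevenly over them. The value nearest the threshold was that of Met, whose wild-type fall was larger than its dICR/dICR change by 1.17 ± 0.55 on the log2 scale (edgeR adjusted p = 0.495). With the depth set as a term this difference was 0.53 ± 0.43 (edgeR adjusted p = 0.69). Fgfr4 differed by 1.73 ± 0.98 (edgeR adjusted p = 0.521) and Fgfr3 by -1.18 ± 0.72 (edgeR adjusted p = 0.547).

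Between genotypes, Met and Fgfr3 stood apart in myotubes without passing the test. Met was at 370 and 193 CPM in dICR/dICR myotubes, above the 82.9 to 161 CPM of all 5 wild-type myotubes, with a log2 fold change of 1.28 ± 0.36 (edgeR adjusted p = 0.117). Within the deep set, where 0 members and 0.709% of all genes were called, it was 1.04 ± 0.36 (edgeR adjusted p = 0.207). Fgfr3 was at 1.76 and 3.33 CPM in dICR/dICR myotubes, below the 4.27 to 14.3 CPM of wild type, at -1.81 ± 0.53 (edgeR adjusted p = 0.132) and -1.18 ± 0.44 within the deep set (edgeR adjusted p = 0.24). These were the 2 members with non-overlapping groups, against 19.3% of all genes.

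Whether these 2 genes are called depends on 1 wild-type library and on the tool. Without wild-type myotube 2 both passed, Met at 1.39 (edgeR adjusted p = 0.0425) and Fgfr3 at -2.0 (edgeR adjusted p = 0.0465), and the all-gene count of calls was then 919 in place of 92. That library also stood apart in its fibroblast marker sum, 925 CPM against 205 to 347 CPM in the other wild-type myotubes, and in its number of genes detected, 20313 against 16208 to 17908, and the part of these in the calls was not tested. DESeq2 on all libraries called Met (1.22, adjusted p = 0.0244), Fgfr3 (-1.90, adjusted p = 0.01) and Fgfr2 (-1.68, adjusted p = 0.0367), 3 of 10 members, where it called 6.77% of all genes. By edgeR 0 of 10 members and 0.556% of all genes were called, and by limma voom 0 members and 2.66% of all genes. By edgeR 4 members had an unadjusted p under 0.05, against 16.8% of all genes. The dICR/dICR myotubes also held smaller sums of differentiating muscle markers (18100 and 40900 CPM) than all wild-type myotubes. Met was at 351 to 441 CPM in the 4 libraries with sums of 3640 to 9520 CPM. It was at 82.9 to 161 CPM in the 5 with sums of 47900 CPM or more. At sums between these Met did not follow the sums closely. It was at 370 and 193 CPM in dICR/dICR myotubes 1 and 2. Wild-type myoblasts 3 and 4, with sums of 18800 and 22500 CPM, had Met at 254 and 243 CPM. The part of the muscle markers in the Met and Fgfr3 values was not tested.

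**Figure D4:**
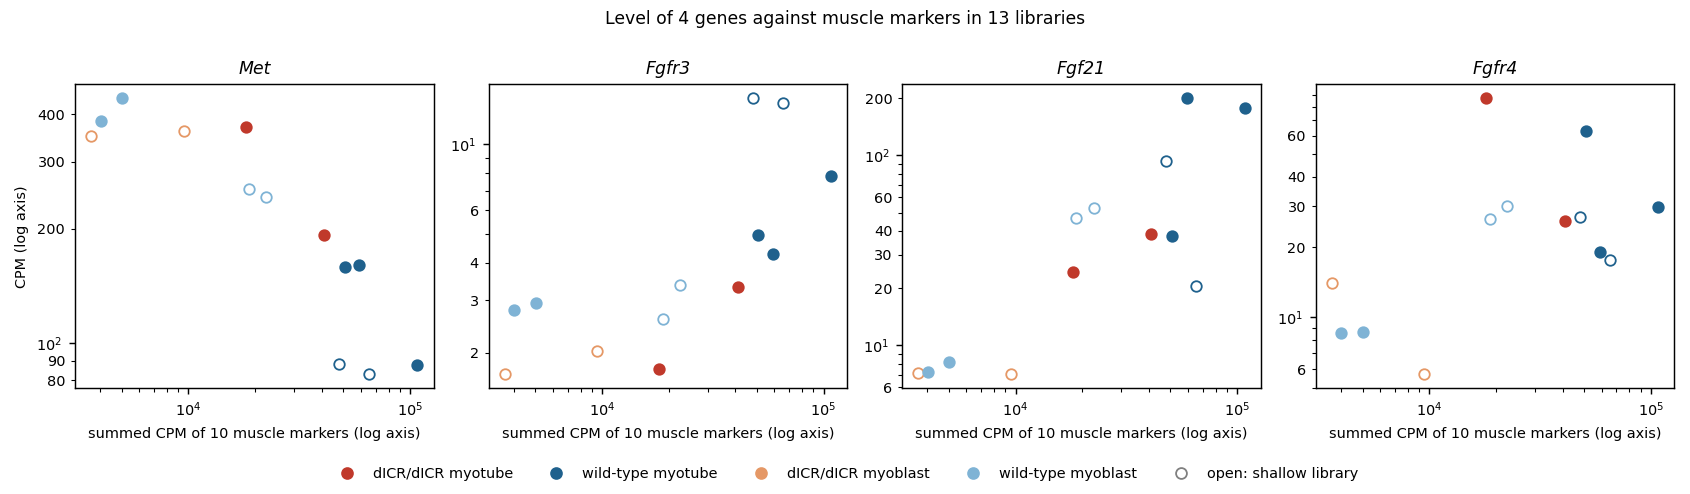
CPM of Met, Fgfr3, Fgf21 and Fgfr4 (log axis) against the summed CPM of 10 markers of differentiating muscle (log axis), 1 point per library coloured by group, open for shallow libraries. Met is lowest, at 82.9 to 161 CPM, where the sums are 47900 CPM or more, and the dICR/dICR myotubes lie at 370 and 193 CPM with sums of 18100 and 40900 CPM, below those of all wild-type myotubes.

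The remaining members of the group gave wide intervals in myotubes. Fgfr4 was at 87.0 and 25.9 CPM in dICR/dICR myotubes and 17.7 to 63.0 CPM in wild-type myotubes, at 0.85 ± 0.64, and without dICR/dICR myotube 1 the value was -0.28. Fgf21 was at 24.3 and 38.3 CPM in dICR/dICR myotubes, inside the wild-type range of 20.6 to 200 CPM (-1.76 ± 0.98, edgeR adjusted p = 0.38). Fgf7 was at 0.545 and 0.832 CPM in dICR/dICR myotubes, against 0.229 to 9.39 CPM (-2.41 ± 1.15, edgeR adjusted p = 0.313). Fgfr2 was at 0.727 and 0.380 CPM in dICR/dICR myotubes, against 0.648 to 2.40 CPM (-1.63 ± 0.56, edgeR adjusted p = 0.186). Fgfr1, Fgfrl1 and Hgf had values of 0.44 ± 0.37, -0.28 ± 0.53 and -0.08 ± 0.81, and for Fgfrl1 and Hgf the sign turned within the deep set (0.53 ± 0.26 and 0.68 ± 0.58).

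In myoblasts 0 of 10 members were called over all libraries by edgeR, DESeq2 or limma voom, where they called 0.0302%, 2.81% and 0.0544% of all genes in that order, and by edgeR Fgfr2 was the 1 member with an unadjusted p under 0.05, against 12.1% of all genes. Fgf21 was at 7.03 and 7.16 CPM in dICR/dICR myoblasts, below all 4 wild-type myoblasts (8.20, 7.25, 46.9 and 52.7 CPM), but only narrowly below the deep ones. It differed by -2.0 ± 1.04 on the log2 scale with every library fitted (edgeR adjusted p = 0.446) and -2.79 ± 0.61 within the shallow set, where it was called (edgeR adjusted p = 0.0181). Fgfr4 was at 5.70 and 14.1 CPM in dICR/dICR myoblasts, against 26.4 and 29.9 CPM in the shallow wild-type myoblasts (-1.51 ± 0.42, edgeR adjusted p = 0.0406) and 8.62 and 8.53 CPM in the deep ones. Met was at 362 and 351 CPM in dICR/dICR myoblasts, against 254 and 243 CPM in the shallow wild-type myoblasts (0.54 ± 0.15, edgeR adjusted p = 0.041) and 441 and 385 CPM in the deep ones, with 0.11 ± 0.39 over all libraries (edgeR adjusted p = 0.928).

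These 3 calls within the shallow set stand against 21.6% of all genes called there, with 8 members tested. In the shallow set Ddx3y was at 14.5 and 63.0 CPM in dICR/dICR myoblasts and 0.247 and 0.153 CPM in wild-type myoblasts, so genotype and the presence of Y-linked RNA cannot be told apart, and the larger muscle marker sums of wild-type myoblasts 3 and 4 coincide with them as well. Fgfr2 was at 1.02 and 1.82 CPM in dICR/dICR myoblasts, below all 4 wild-type myoblasts (2.70 to 4.59 CPM), at -1.28 ± 0.57 (edgeR adjusted p = 0.4). Fgfr3 was also below all wild-type myoblasts (2.03 and 1.69 CPM, against 2.59 to 3.37 CPM) and Fgfrl1 above them (54.9 and 75.7 CPM, against 42.3 to 49.9 CPM), and neither passed (edgeR adjusted p = 0.631 and 0.72). The 4 members with non-overlapping groups compare with 28.5% of all genes. Fgfr1 was at 37.7 and 62.1 CPM in dICR/dICR myoblasts and 46.7 to 90.4 CPM in wild-type myoblasts. Hgf was at 1.41 and 1.04 CPM in dICR/dICR myoblasts, 18 and 8 counts, against 0.427 to 1.11 CPM, and Fgf7 at 0.625 and 0.912 CPM, against 0.370 to 1.67 CPM.

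**Figure D5:**
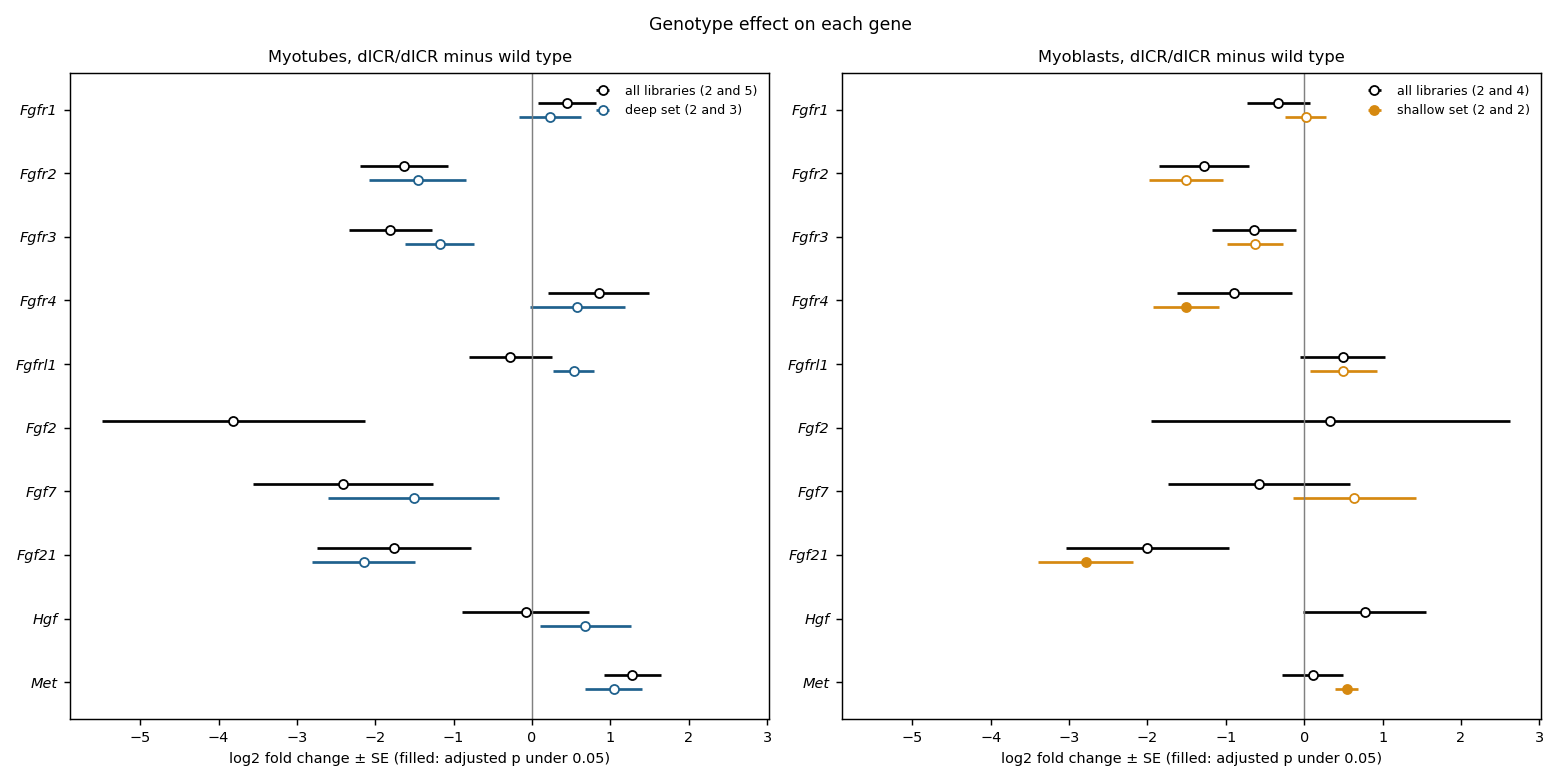
Log2 fold change with its SE of each gene for dICR/dICR minus wild type in myotubes (left, all libraries and deep set) and myoblasts (right, all libraries and shallow set), with filled points for adjusted p under 0.05. In myotubes Met lies at 1.28 and 1.04 and Fgfr3 at -1.81 and -1.18, with no filled point, and in myoblasts Fgf21, Fgfr4 and Met are filled within the shallow set.

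The rest of the pathway was read from 7 lists of 129 genes. Of the 19 other FGF ligands 12 were measured above the filter, and in wild-type differentiation Fgf9 rose by 1.84 ± 0.37 to a mean of 5.53 CPM in myotubes, against 1.55 CPM in myoblasts, while Fgf15 fell by 2.82 ± 0.78 at levels below 0.3 CPM. Among 28 coreceptors, heparan sulfate enzymes and binding proteins, 4 rose and 6 fell. The transmembrane heparan sulfate carriers Sdc1, Sdc3 and Sdc4 fell (-1.94 ± 0.48, -2.12 ± 0.35 and -1.18 ± 0.28), as did the sulfatase gene Sulf1 (-1.37 ± 0.29), which trims the sulfate groups FGFs bind. The neural cell adhesion gene Ncam1 rose by 2.23 ± 0.41 and Flrt1, a membrane protein that binds FGF receptors, by 4.52 ± 0.78.

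Among 26 adaptors and transducers 5 rose and 2 fell, with the docking protein gene Gab2 at 1.46 ± 0.22 and the kinase genes Src and Mapk3 at -1.24 ± 0.19 and -1.10 ± 0.31. Of 20 ERK targets and feedback inhibitors 8 fell and 1 rose, with a median log2 fold change of -1.17. The ERK-responsive factor gene Etv4 fell by 4.48 ± 0.65, the cyclin D gene Ccnd1 fell by 4.39 ± 0.36 and the phosphatase gene Dusp4 fell by 2.50 ± 0.17, whereas the FGF antagonist gene Spry1 rose by 2.47 ± 0.36. With library size alone 11 fell and 1 rose. Of 17 genes of HGF activation, the Met family and Met partners, 3 fell and 0 rose: the Met coreceptor gene Cd44 (-2.44 ± 0.31), the urokinase receptor gene Plaur (-3.20 ± 0.59) and the phosphatase gene Ptprj (-1.53 ± 0.38). Of 9 transcription factor genes upstream of Fgfr4 and Met, Tead4 rose by 2.36 ± 0.25, and Myf5 (-2.12 ± 0.39), Pax7 (-1.83 ± 0.36) and Tead2 (-0.65 ± 0.16) fell. Of 10 integrated stress genes, which include Atf4, Gdf15 fell (-2.59 ± 0.49) and none rose.

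All these calls are by edgeR over all genes, and across the 7 lists they compare with 19.1% of all genes called in wild-type differentiation. In dICR/dICR differentiation, where 0.145% of all genes were called, 2 list genes passed, Dusp4 (-2.68 ± 0.27, edgeR adjusted p = 0.00472) and Ccnd1 (-3.44 ± 0.54, edgeR adjusted p = 0.0351). With the depth set as a term 14 list genes passed there, 6 higher (Fgf11, Gpc1, Hs6st1, Grb2, Stat3 and Tead4) and 8 lower (Ccnd1, Dusp4, Dusp5, Errfi1, Etv4, Fosl1, Cd44 and Ptprj), and 7.63% of all genes. These calls assume that the set difference of the wild-type libraries also holds in dICR/dICR cells, where stage and set cannot be told apart. For the genotype effects over all libraries edgeR called 0 list genes with group means alone. With the depth set as a term it called Sulf1 and Spint2 lower in dICR/dICR myoblasts, where 2.01% of all genes were called, and Fgfbp1 lower in dICR/dICR myotubes, where 2.57% were. Within the shallow set 11 of 24 coreceptor and heparan sulfate genes fell in dICR/dICR relative to wild-type myoblasts and 0 rose. Of the 20 ERK genes there, Dusp4, Dusp5, Etv4 and Spred1 were higher and Spry1 lower. Of all genes 10.3% were called lower and 11.3% higher in that fit, again with the confounding named above. Within the deep set 1 list gene, Fgf1, was called in the myotube genotype comparison, higher in dICR/dICR, where 0.709% of all genes were called.

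The genes whose log2 CPM most resembled each member over the 13 libraries describe the same divisions. These libraries share stage, set and genotype structure, so the coefficients are descriptions. Met was nearest to Mcm2 (Pearson r = 0.977), Prps2 (0.974) and Hace1 (0.974), and Fgfr4 to Sox8 (0.969), Gas1 (0.928) and 4930483K19Rik (0.911). Fgfr3 was nearest to Plekhg5 (0.95), Ppfibp2 (0.948) and Scel (0.947), and Fgf21 to Ulk3 (0.954), Tspan33 (0.938) and 1190002N15Rik (0.938). Fgfr2 was nearest to Serpinb8 (0.954), Mmp17 (0.904) and Gpr137c (0.884), Fgfr1 to Wbp2 (0.911), Prl2c2 (0.885) and Tfg (0.868), and Fgfrl1 to Cdh1 (0.931), Lctl (0.928) and F630206G17Rik (0.915). For the low genes the nearest were Dpt, Sec31b (0.923) and Bgn (0.915) for Fgf2, Cd300c (0.92), Adm (0.898) and Abcb9 (0.882) for Fgf7, and Tnip3 (0.925), Neurod1 (0.906) and Fancf (0.905) for Hgf, where a few counts set the pattern. After centring on each depth set all 3 genes remained the nearest for Fgfr4, and none of the 3 for Fgfr1, Hgf and Met, for which Rpa3 (0.991), Mcm7 (0.988) and Msh6 (0.986) were then the nearest to Met.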

How the data were processed

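Per the labels' protocols, RNA with an integrity number above 9 was depleted of ribosomal RNA and sequenced on HiSeq or SOLiD instruments, and no source used here says which library was run on which. The submitters' processing notes name TopHat2, HTSeq and the mm9 build, without versions or a strand setting. The authors deposited 1 table of raw read counts per gene, whole numbers for 13 libraries, with totals of 5.31 to 56.44 M (1e6 counts), so low genes are less precise in shallow libraries.

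Counts were fitted with edgeR 4.0.16 (R 4.3.3) by the quasi-likelihood test, with TMM scaling, 4 group means over all 13 libraries, filterByExpr (minimum count 10, minimum total 15; 16537 genes kept) and Benjamini-Hochberg adjustment over all genes tested, calling adjusted p under 0.05. The script was tested on simulated data with the same dispersion for every gene and no difference between depth sets. That test does not cover the uneven spread of these libraries. CPM uses TMM-scaled totals, and exon lengths are from GENCODE M21 on GRCm38. The depth sets were defined from total counts and are not groups of the study. Alternatives were other scalings, no filter, DESeq2 1.42.0, limma 3.58.1 (voom), the depth set as a term, fits within each set, the replicate number as a block, and each library left out. The depth term is estimated from wild-type libraries alone, since no dICR/dICR group spans both sets. It is assumed to hold for both genotypes. Errors given with fold changes are standard errors of the fit, which include the spread between libraries. No 2 libraries of a group differed by less than sampling noise (the lowest chi-square per degree of freedom was 4.7, between wild-type myoblasts 3 and 4). Wild-type myotubes 4 and 5 were at 21.9, dICR/dICR myoblasts 1 and 2 at 34.3 and wild-type myoblasts 1 and 2 at 39.8. Wild-type myoblasts across the depth sets were at 363.5 to 368.8, and the other wild-type myotube pairs at 245.9 to 324.1. The dICR/dICR myotubes 1 and 2, both deep, were at 249.2. The chi-square per degree of freedom also grows with depth. Fits within the shallow set take their spread from its close pairs alone.

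The genes and lists were chosen with earlier results of these data known. Named genes were the 10 members, up to 6 called genes per list by adjusted p, and the 3 genes with the highest Pearson r to each member (log2 CPM, prior count 2); a few called list genes beyond the 6, and the nearest genes after centring, were named after their values were seen.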

Additional observations from a re-analysis of the deposited data

Results flagged for a closer look

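Of 20 sets of 4 or 5 libraries examined on linear CPM for a value standing apart from the rest of its group, 4 held one. The rule's rate of about 1 in 20 holds for independent sets of normally distributed values. Linear CPM is skewed and the sets share libraries, so no excess over chance is drawn from the count. All 4 were in wild-type myotubes, each in a different library and gene. Fgfr1 was at 111 CPM in wild-type myotube 3, with the others at 45.5 to 60.4 CPM. Fgfr4 was at 63.0 CPM in wild-type myotube 2, with the others at 17.7 to 29.7 CPM. Fgfrl1 was at 134 CPM in wild-type myotube 5, with the others at 24.1 to 46.3 CPM. Hgf was at 1.08 CPM in wild-type myotube 4, from 7 counts, with the others at 0.0762 to 0.240 CPM.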

How the results depend on the processing

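Met and Fgfr3 in wild-type differentiation kept their direction under every alternative run, and Met its call. Fgfr3 lost its call within the deep set and without wild-type myoblast 1 or 2. Members called in wild-type differentiation were 2 over all libraries, 4 by DESeq2 (Met, Fgfr3, Fgf21 and Fgf2, where 4325 of 16537 genes were called) and 1 to 3 with 1 library left out. For genotype in myotubes they were 0, 3 by DESeq2 and 0 to 2 with 1 library left out, and in myoblasts 0, and 3 within the shallow set. Where the cause is not given by fewer libraries or genes, it was not tested.

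Counts of all genes called moved more. For genotype in myoblasts, 5 became 3 with DESeq2-type size factors, 1 with no filter, 464 by DESeq2, 9 by voom, 333 with the depth set as a term, 2717 within the shallow set, and 0 to 6 with 1 library left out. For genotype in myotubes, 92 became 1120 by DESeq2, 440 by voom, 425 with the depth term and 1 to 919 with 1 library left out, highest without wild-type myotube 2. For wild-type differentiation, 3158 became 5267 with the depth term and 1769 to 3574 with 1 library left out. For dICR/dICR differentiation, 24 became 41 with no filter, 1199 by DESeq2, 98 by voom, 1262 with the depth term and 0 to 78 with 1 library left out. For the difference between the changes, 0 became 72 by DESeq2 and 16 with the depth term. Library size alone shifted the median of all genes in wild-type differentiation to -0.26 on the log2 scale, against 0.02, and the calls to 779 higher and 2825 lower, against 1466 and 1692. In dICR/dICR differentiation it shifted the median to -0.29 and the calls to 11 higher and 11 lower, against 19 and 5, where DESeq2-type size factors gave 17 and 14. In the myotube genotype comparison it gave 65 higher and 19 lower, against 55 and 37, and in the myoblast one 4 and 0, against 3 and 2, where DESeq2-type size factors gave 3 and 0.

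Whether the replicate numbers pair the libraries could not be decided. Same-numbered deviations from group means correlated at -0.41 to 0.52, with 5 of 14 pairs over 0.1, and 3 of 13 libraries correlated best with their own number. Wild-type myoblast and myotube pairs 1, 2 and 4, each within 1 depth set, stood at 0.43, 0.52 and 0.52. Pair 3, across the sets, stood at -0.41. The wild-type group means mix the depth sets, and in groups of 2 the deviations mirror each other. With the replicate block the all-gene counts were 0 for genotype in myoblasts, 3 for genotype in myotubes and 100 for dICR/dICR differentiation, and in wild-type differentiation 3063 (18.5%), with 3 members called, Met, Fgfr3 and Fgf21, the last gained at 2.57 ± 0.66 (edgeR adjusted p = 0.0286). The block turned the sign of Fgfrl1 in the myotube genotype comparison (0.50) and in wild-type differentiation (-0.46), of Hgf in myotubes (0.79), of Met in myoblasts (-0.24) and of the Fgf21 difference between changes (-0.34).

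The other reversals were of values that had not passed. With library size alone, wild-type differentiation gave -0.24 for Fgfr1 and -0.01 for Fgfrl1. By voom it gave -0.02 for Fgfr1 and -0.24 for Fgfrl1, the myotube genotype effect 0.20 for Fgfrl1 and 0.35 for Hgf, and the difference between changes -0.50 for Fgf21. With the depth term, wild-type differentiation gave -0.04 for Fgfr1, dICR/dICR differentiation 0.33 for Fgfrl1 and 0.37 for Fgf7, the difference 0.09 for Fgfr2, 0.25 for Fgfrl1 and 0.48 for Hgf, and the genotype effect -0.01 for Fgfrl1 in myoblasts and 0.24 for Fgfrl1 and 0.53 for Hgf in myotubes. Within the deep set, wild-type differentiation gave -0.02 for Fgfr1 and -0.55 for Fgfrl1, and the myotube genotype effect 0.53 for Fgfrl1 and 0.68 for Hgf. Within the shallow set, the myoblast genotype effect gave 0.02 for Fgfr1 and 0.64 for Fgf7, and wild-type differentiation -0.30 for Fgfr4.

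With 1 library left out, values spanned 0 as follows. Wild-type differentiation ran from -0.27 to 0.25 for Fgfr1 and -0.41 to 0.43 for Fgfrl1. dICR/dICR differentiation ran from -0.09 to 0.83 for Fgfr3, -3.35 to 3.28 for Fgf2, -0.48 to 0.14 for Fgf7 and -0.89 to 0.05 for Met. The difference ran from -0.89 to 0.13 for Fgfr2 and -0.24 to 0.58 for Fgf21. The myotube genotype effect ran from -0.28 to 1.47 for Fgfr4, -0.50 to 0.35 for Fgfrl1 and -0.43 to 0.68 for Hgf, and the myoblast one from -3.21 to 1.02 for Fgf2. Fits that leave 1 dICR/dICR library in a group take its spread from the other groups.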
